A study of Homo sapiens with 8 samples.

Results

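The RBM genes share a naming convention more than a pathway: each encodes a protein with an RNA recognition motif, and they range from core parts of the spliceosome to tissue-restricted regulators of splicing and mRNA stability. The set described here comprised 36 such genes, listed by symbol and matched through their Ensembl identifiers. RBM39, the protein that indisulam removes, RBM23, its close paralogue, and RBM17 were left out of the set by definition. All 36 genes were found among the 60675 genes of the count tables, and 35 of them were among the 16661 genes with enough reads to be tested. RBM20 was the exception.

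The libraries were made from Panc10.05, an established line derived from a human pancreatic cancer, and from Panc10.05 cells that had acquired resistance to indisulam during culture in rising concentrations of it. Indisulam is an aryl sulfonamide that brings RBM39 to the DCAF15 ubiquitin ligase, and RBM39 is then degraded. The 8 libraries fell into 4 groups of 2: parental untreated cells, parental cells given 2 µM indisulam for 18 h, resistant cells kept on 2 µM indisulam, and resistant untreated cells, which had spent 1 week off the drug. Each line is thus represented by a single population, whether the resistant population was a clone is not stated in the sources used here, and the untreated resistant cells are cells on a drug holiday and not drug-naive cells. Notes on growth and treatment mention A549, a lung cancer line, but every title gives Panc10.05, which is followed here. Both libraries of a group were technical replicates in the study's own terms, so the p-values below concern the spread between these libraries and not between independent cultures.

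Gene-assigned reads numbered 65266253 to 108002436 per library and were highest in the 2 parental untreated libraries. The epithelial keratins KRT7, KRT8, KRT18 and KRT19 with EPCAM and CDH1 were each at 168 CPM (counts scaled to 1000000 reads) or more in every library, whereas CEACAM6, S100P and TFF1 had at most 11 reads in any library. All 5 lung epithelial markers, all 5 leukocyte markers and all 4 endothelial markers were under 1 CPM, as were 4 of 5 fibroblast markers. RBM39 mRNA stood at 332 and 337 CPM in the untreated parental libraries, 716 and 731 CPM after indisulam, 299 and 311 CPM in resistant cells off the drug, and 577 and 591 CPM in resistant cells on it. Its rise was called in parental cells (log2 fold change 1.11, SE 0.029, adjusted p = 4.9e-18) and in resistant cells (0.94, SE 0.029, adjusted p = 7.3e-18), above the spread between libraries.

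RBM proteins act on RNA at several steps. Some are structural parts of the machine that removes introns or of the exon junction complex left behind on the spliced message, others select alternative exons, guide the methylation of adenosine, hand RNA to the nuclear exosome, build ribosomes, or bind the 3' end of messages and change their stability. Levels in this section are given as CPM after TMM scaling (trimmed mean of M values), except where reads per kilobase of annotated exon, scaled to library size as CPM are, (RPKM) are named, because a comparison between genes requires length to be taken into account. Changes are log2 fold changes from the edgeR quasi-likelihood test with their standard errors (SE), and a gene was called where its Benjamini-Hochberg adjusted p over all 16661 tested genes was under 0.05.

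Upstream sequence was read for 33 of the 36 genes from RefSeq on GRCh38.p14, as the 250 bases before the annotated start of transcription, and searched on both strands for CCAAT (the box bound by NF-Y), GGGCGG (bound by SP1-type factors) and CCGGAAG (bound by ETS-type factors). CCAAT was present for 17 of the 33 genes (51.5%, against 37% of all 27305 genes with a window), GGGCGG for 18 (54.5% against 46.2%) and CCGGAAG for 8 (24.2% against 10.2%). These letters describe the windows and were not tested. 4 windows are shown because their genes carry the contrasts described below: RBM5 and RBM4B, which fell in treated parental cells, RBMX2, which rose there, and RBMS1, which was higher in the resistant line. They were chosen after the values had been seen, among windows that held no exon of another gene. The RBM5 window, chr3:50088669-50088918 on the plus strand, lay inside the neighbouring RBM6 gene, and its CCAAT match, written on the opposite strand, is in capitals. The RBM4B window was chr11:66677888-66678137 on the minus strand, with its CCAAT match, also on the opposite strand, in capitals and a GGGCGG match left in lower case. The RBMX2 window was chrX:130401737-130401986 on the plus strand, with CCGGAAG in capitals as read from the other strand. The RBMS1 window was chr2:160493808-160494057 on the minus strand, and the capitals mark 4 matches to GGGCGG on the other strand, the last of which overlaps the match before it.
RBM5: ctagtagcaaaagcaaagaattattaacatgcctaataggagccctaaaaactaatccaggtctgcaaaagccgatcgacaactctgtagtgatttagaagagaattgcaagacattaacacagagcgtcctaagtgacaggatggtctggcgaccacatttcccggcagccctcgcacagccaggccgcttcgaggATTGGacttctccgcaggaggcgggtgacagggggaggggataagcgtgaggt
RBM4B: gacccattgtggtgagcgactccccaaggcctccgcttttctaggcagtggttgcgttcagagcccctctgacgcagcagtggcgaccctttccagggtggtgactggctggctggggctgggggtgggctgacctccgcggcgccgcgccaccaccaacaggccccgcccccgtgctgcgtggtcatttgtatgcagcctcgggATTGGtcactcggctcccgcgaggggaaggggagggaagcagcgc
RBMX2: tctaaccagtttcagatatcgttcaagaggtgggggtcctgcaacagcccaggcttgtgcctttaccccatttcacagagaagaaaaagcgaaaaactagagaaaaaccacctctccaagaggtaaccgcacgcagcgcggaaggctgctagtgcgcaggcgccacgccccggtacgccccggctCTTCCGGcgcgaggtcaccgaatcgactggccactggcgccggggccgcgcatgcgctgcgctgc
RBMS1: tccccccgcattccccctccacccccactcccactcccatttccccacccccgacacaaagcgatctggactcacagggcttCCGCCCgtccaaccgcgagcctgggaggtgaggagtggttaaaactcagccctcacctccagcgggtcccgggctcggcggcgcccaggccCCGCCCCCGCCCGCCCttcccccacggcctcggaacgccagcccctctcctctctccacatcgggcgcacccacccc

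The genes spanned a wide range of abundance per length. Median RPKM over all libraries was 7.11 for the 35 tested RBM genes and 2.63 for all tested genes with a length, and 27 of the RBM genes lay above the latter. RBM3, a protein induced by mild cold that supports translation, was the most abundant at 61.5 RPKM, followed by RBMX (48.3), an hnRNP G protein of splice-site selection, RBM42 (40.3), RBM10 (35.4), RBM8A (29.3), RBM22 (28.7) and RBMS2 (26.7). At the low end stood RBM43 (0.725), RBM34 (0.238), RBM24 (0.120) and RBMS3 (0.0206). RBM20, the regulator of titin splicing in heart muscle, had 0 reads in 6 libraries and 2 reads in each of the 2 libraries of resistant cells on indisulam. A count of 0 allows up to 3 reads, which corresponds to 0.0274 to 0.0462 CPM in these libraries, and this limit covers counting error only. RBM20 was therefore at or under the detection limit in all 8 libraries and was not tested.

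**Figure D1:**
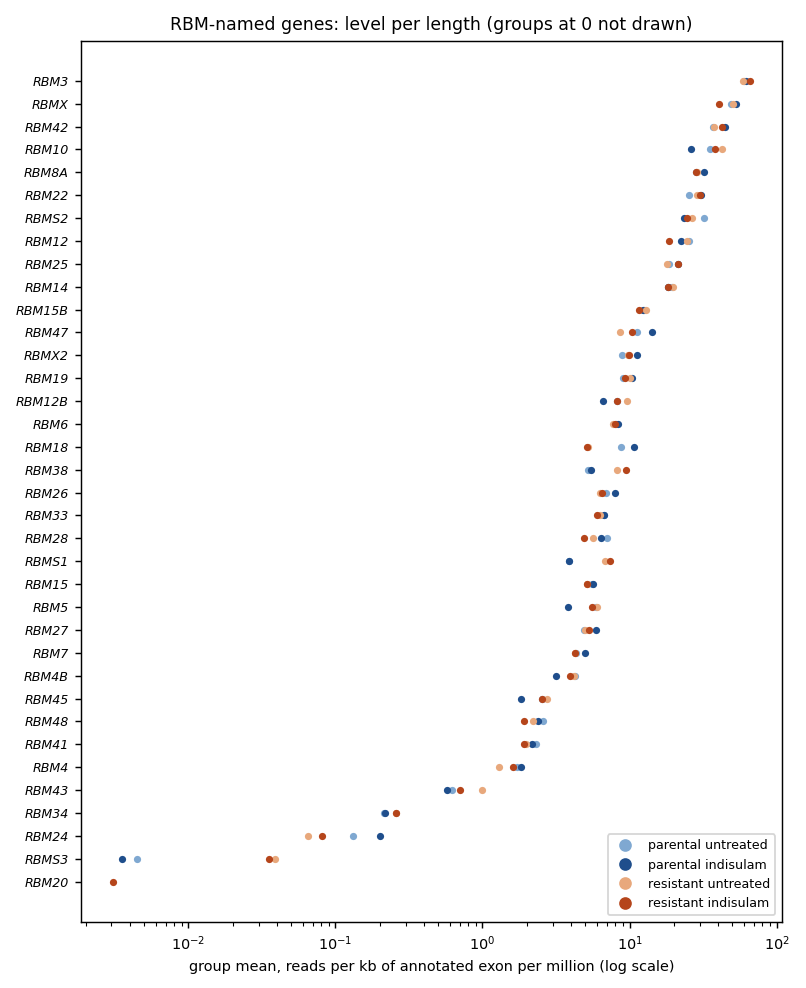
Mean level of each of the 36 RBM genes in each group, in RPKM on a log axis, with 1 point per group of 2 libraries and genes ordered by their mean over all libraries. RBM3 is at the top at 61.5 RPKM, and RBM24, RBMS3 and RBM20 lie below the other genes, with RBM20 drawn for resistant cells on indisulam alone because its other groups were at 0.

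Annotated overlaps limit what some of these values can say. RBM34 shares 48.6% of its exon bases with ARID4B on the same strand, and of the reads assigned to either gene 98.4% went to ARID4B, and RBM34 rests on 467 reads over all libraries. RBM4 shares 23.8% of its exon bases with the RBM14-RBM4 readthrough gene and has 590 bases in common with RBM4B on the other strand. RBM5 and RBM6 share 456 exon bases on 1 strand, and RBM12 shares 575 with CPNE1. RBM27 shares 44.8% of its exon bases with a gene model that received 1 read. The strand setting of the counting is not given in the sources used here, so overlaps across strands, such as the 1325 bases of RBM15B with DCAF1 and the 598 bases of RBMS2 with BAZ2A, are of unknown effect. Of 75-base stretches of the transcripts, 4.96% in RBMX and 5.98% in RBMS2 also occur elsewhere, mostly in RBMXL1 and in a pseudogene of RBMS2, and the share was 8.20% in RBM8A. How the counting treated reads from such stretches was not tested.

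The first comparison asks what 18 h of indisulam did to these transcripts in sensitive parental cells. Of the 35 tested RBM genes, 13 rose, 10 fell and 12 were not called, and the 23 called genes (65.7%) stand beside 58.2% of all tested genes called in the same comparison, 31.6% higher and 26.6% lower. The split became 12 higher and 12 lower with libraries scaled by their total reads alone. A filter on a mean of at least 1 CPM gave the same split. The median shift over all genes was -0.066 and -0.057 log2 units in this order. Shares of all genes called under these settings are not given, here or in the comparisons below. The changes were small. The median absolute log2 change was 0.19 for the RBM genes and 0.23 for all genes, and 2 RBM genes changed by at least 0.5 log2 units and were called, against 15.8% of all genes. The largest rises were those of RBM24 (0.60, SE 0.20), RBM47 (0.35, SE 0.029), RBMX2 (0.34, SE 0.038), RBM18 (0.29, SE 0.035) and RBM22 (0.28, SE 0.031). The largest falls were those of RBM5 (-0.63, SE 0.035), RBM45 (-0.46, SE 0.054), RBMS2 (-0.46, SE 0.030), RBM4B (-0.43, SE 0.048) and RBM10 (-0.42, SE 0.0295). The libraries are bulk RNA, in which fewer cells of a kind and less RNA per cell cannot be told apart. The 2 treated libraries did not overlap the 2 untreated ones for 28 RBM genes, a condition that 78.8% of all tested genes met. The called rises of RBM7, RBM8A, RBM19, RBM25, RBM26, RBM27, RBM42 and RBMX lay between 0.12 and 0.27, and the called falls of RBM12, RBM12B, RBM14, RBM28 and RBM48 between -0.09 and -0.32. An exact permutation test of 2 libraries against 2 cannot go below p = 0.333 two-sided, so each call rests on the model fitted across all genes. The calls of RBM14, RBM24, RBM28 and RBM48 were lost when particular libraries were left out: RBM28 without parental untreated replicate 2 (-0.10, adjusted p = 0.052), RBM48 without parental untreated replicate 1 (-0.10, adjusted p = 0.18) or parental indisulam replicate 1 (-0.13, adjusted p = 0.054), and RBM14 without either parental untreated library or parental indisulam replicate 2 (-0.08 to -0.09, adjusted p = 0.094 to 0.13), and RBM24 as described with its values below.

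In resistant cells, the comparison of continuous indisulam with the drug holiday gave 9 higher and 12 lower RBM genes, with 14 not called. The 21 called genes made up 60.0%, beside 50.7% of all tested genes, 24.9% higher and 25.8% lower. With libraries scaled by their total reads alone, the split became 11 higher and 8 lower. A filter on a mean of at least 1 CPM gave 11 and 9. The median shift over all genes was 0.049 and 0.028 log2 units in this order. The median absolute log2 change was 0.11, against 0.20 for all genes, and RBM43 alone passed 0.5 log2 units (-0.51, SE 0.092), against 13.8% of all genes. The largest rises were those of RBM4 (0.31, SE 0.064), RBM47 (0.26, SE 0.030), RBM25 (0.26, SE 0.028), RBM38 (0.21, SE 0.047) and RBM42 (0.17, SE 0.034). After RBM43 the largest falls were those of RBM12 (-0.40, SE 0.030), RBMX (-0.32, SE 0.027), RBM12B (-0.22, SE 0.032) and RBM28 (-0.19, SE 0.032). The libraries on and off the drug did not overlap for 28 RBM genes, as for 73.0% of all genes. The calls of RBM5, RBM14, RBM19, RBM22, RBM27, RBMS1 and RBMS2 were lost when a library was left out. RBMS1 lost it without resistant indisulam replicate 2 (0.09, adjusted p = 0.059), RBMS2 without resistant untreated replicate 2 (-0.07, adjusted p = 0.077) or resistant indisulam replicate 1 (-0.09, adjusted p = 0.066), and RBM14 without resistant indisulam replicate 2 (-0.06, adjusted p = 0.24).

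The responses of the lines were then set against each other. Exposure differed along with line. The parental response compares 18 h on the drug with untreated cells, and the resistant response compares continuous drug with 1 week off it. Line and exposure therefore cannot be told apart in this contrast. The difference of the responses, resistant minus parental, was called for 20 RBM genes, 8 with a higher and 12 with a lower value in resistant cells, which is 57.1% beside 50.1% of all tested genes, 22.7% higher and 27.5% lower. With libraries scaled by their total reads alone, the split was 12 higher and 6 lower. The filter on 1 CPM gave 11 higher and 7 lower. The median shift over all genes in this contrast was 0.115 and 0.085 log2 units in this order. The highest differences were those of RBM5 (0.53, SE 0.049), RBMS2 (0.35, SE 0.043), RBM4B (0.35, SE 0.069), RBM45 (0.34, SE 0.076) and RBM10 (0.27, SE 0.042). The lowest were those of RBMX (-0.44, SE 0.037), RBM43 (-0.39, SE 0.13), RBMX2 (-0.30, SE 0.055), RBM18 (-0.30, SE 0.054) and RBM19 (-0.29, SE 0.054). This contrast contains the parental response by construction, and the responses of the 5 genes at the high end are given side by side: -0.63 in parental and -0.11 in resistant cells for RBM5, -0.46 and -0.11 for RBMS2, -0.43 and -0.08 for RBM4B, -0.46 and -0.12 for RBM45, and -0.42 and -0.16 for RBM10. RBM5 alone passed 0.5 log2 units, as 16.4% of all genes did. Called in both lines were 15 RBM genes: 5 rose in both (RBM22, RBM25, RBM27, RBM42 and RBM47), 8 fell in both (RBM5, RBM10, RBM12, RBM12B, RBM14, RBM28, RBM48 and RBMS2), and RBMX and RBM19 rose in parental and fell in resistant cells. Over all tested genes, 22.4% were called in both lines in 1 direction and 11.2% in opposite directions.

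**Figure D2:**
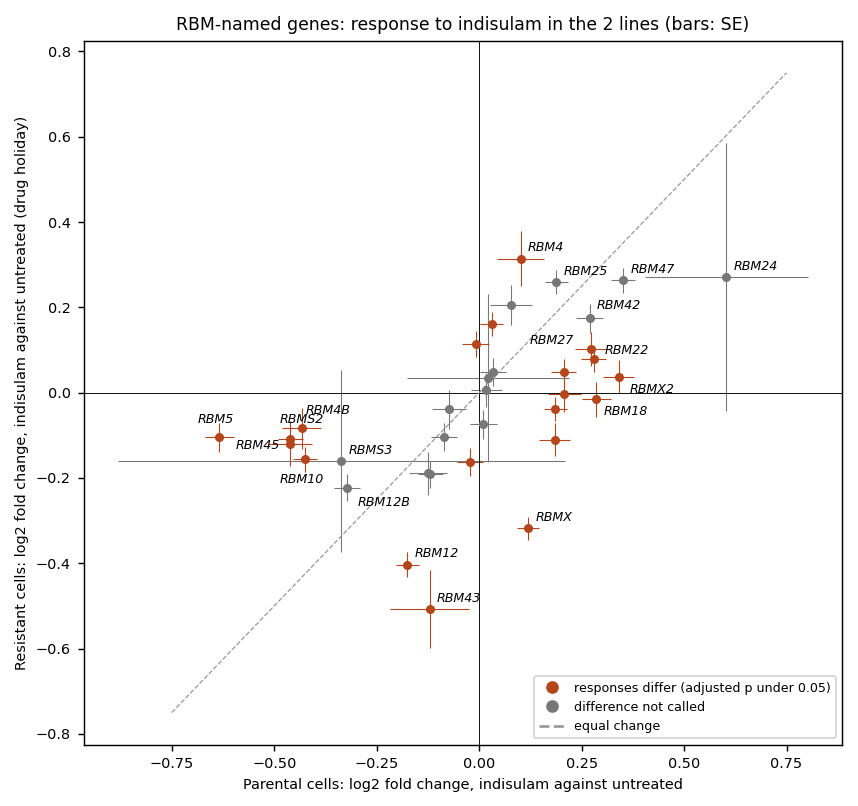
Response of the 35 tested RBM genes to indisulam in parental cells (x axis) and in resistant cells (y axis), as log2 fold changes with SE bars, coloured by whether the difference of the responses was called. RBM5, RBM45, RBMS2 and RBM4B lie far left and close to the horizontal zero line, RBMX lies in the lower right quadrant, and RBM25 and RBM47 lie near the dashed line of equal change.

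Between the lines, both untreated, 11 RBM genes were higher in resistant cells, 11 were lower and 13 were not called, which is 62.9% beside 60.1% of all tested genes, 30.3% higher and 29.9% lower. With total reads as the only scaling, the split was 9 higher and 15 lower, and the median shift over all genes was -0.028 log2 units. RBM genes called with a difference of at least 0.5 log2 units numbered 6, against 24.6% of all genes. Higher in resistant cells were RBMS3 (3.08, SE 0.31), RBMS1 (0.80, SE 0.032), RBM43 (0.68, SE 0.089), RBM38 (0.67, SE 0.049) and RBM10 (0.28, SE 0.029). Lower were RBM24 (-1.02, SE 0.27), RBM18 (-0.75, SE 0.039), RBM4 (-0.41, SE 0.061), RBM47 (-0.38, SE 0.030) and RBM28 (-0.31, SE 0.031). The libraries of the lines did not overlap for 31 RBM genes, beside 79.5% of all genes. Calls that were lost when a library was left out were those of RBM15, RBM19, RBM33, RBM45, RBMX and RBMX2, whose differences were between -0.12 and 0.14. RBM33 (-0.09, adjusted p = 0.024) lost it without parental untreated replicate 1 (-0.07, adjusted p = 0.20) or resistant untreated replicate 1 (-0.04, adjusted p = 0.42), and the others are given with their values below.

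With both lines on indisulam, 10 RBM genes were higher in resistant cells and 18 were lower, with 7 not called. Parental cells had been on the drug for 18 h and resistant cells continuously, so line and exposure cannot be told apart here. The share called was 80.0%, beside 69.5% of all tested genes, 34.6% higher and 34.9% lower. The split was 13 higher and 12 lower with total reads as the only scaling, and 12 higher and 12 lower with the filter on 1 CPM. The median shift over all genes was 0.088 and 0.079 log2 units in this order. Past 0.5 log2 units were 7 RBM genes, against 31.7% of all genes. RBMS3 (3.25, SE 0.36), RBMS1 (0.92, SE 0.032), RBM38 (0.79, SE 0.049), RBM5 (0.55, SE 0.036) and RBM10 (0.55, SE 0.030) were highest relative to parental cells, and RBM24 (-1.35, SE 0.24), RBM18 (-1.05, SE 0.038), RBM47 (-0.46, SE 0.029), RBM28 (-0.38, SE 0.031) and RBMX (-0.38, SE 0.027) were lowest. The libraries did not overlap for 31 RBM genes, as for 83.8% of all genes. The calls of RBM4, RBM15, RBM15B, RBM27 and RBM43 were lost when a library was left out. RBM4 (-0.19) lost it without parental indisulam replicate 2 (-0.15, adjusted p = 0.078) or resistant indisulam replicate 2 (-0.11, adjusted p = 0.20), and RBM27 (-0.15) without parental indisulam replicate 1 (-0.11, adjusted p = 0.050). RBM15B (-0.08, adjusted p = 0.029) lost it without 5 of the 8 libraries, with -0.03 (adjusted p = 0.56) without parental indisulam replicate 1 as the value nearest 0, and with total reads as the only scaling it stood at 0.0070 (adjusted p = 0.86).

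Called between the lines both off and on the drug were 20 RBM genes. Of these, 7 were higher in resistant cells each time (RBM10, RBM12B, RBM38, RBM43, RBM45, RBMS1 and RBMS3), 10 were lower each time (RBM4, RBM15, RBM18, RBM24, RBM26, RBM28, RBM33, RBM41, RBM47 and RBM48), and RBM19, RBMX and RBMX2 were higher off the drug and lower on it. For RBM19, RBMX and RBMX2 the off-drug call was lost when particular libraries were left out. The on-drug call of RBM19 was lost with total reads as the only scaling (-0.065, adjusted p = 0.14) and with the filter on 1 CPM (-0.074, adjusted p = 0.098). Over all tested genes, 39.8% were called each time in 1 direction and 7.71% in opposite directions.

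**Figure D3:**
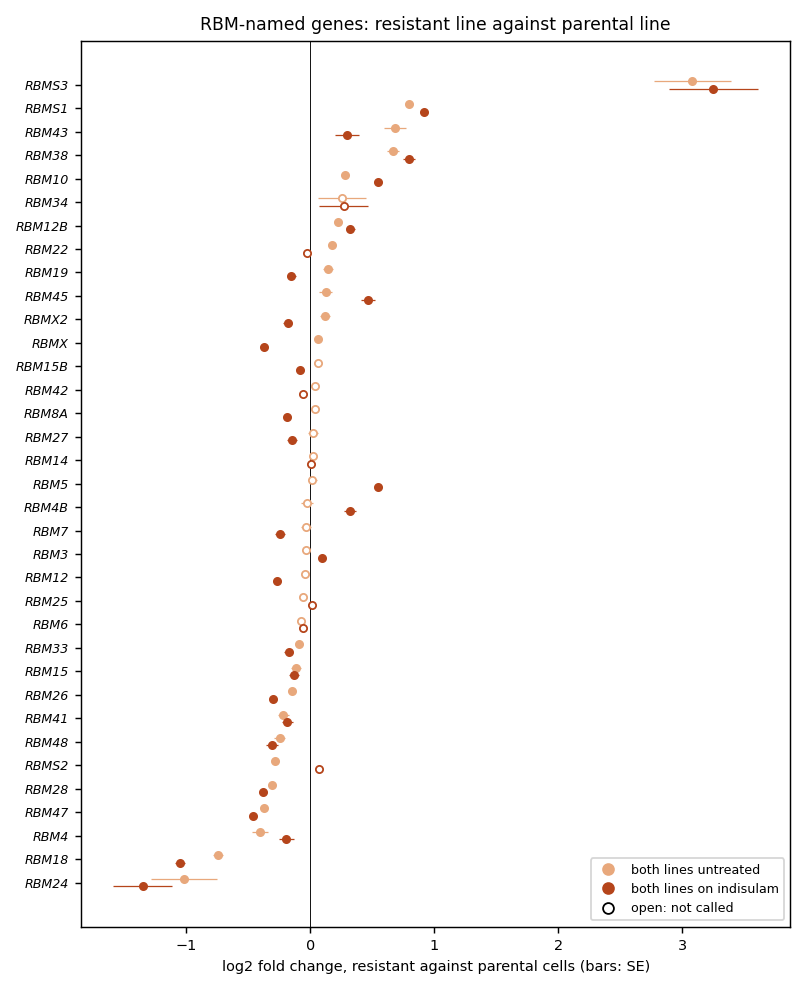
Difference between resistant and parental cells for the 35 tested RBM genes, as log2 fold changes with SE bars, for untreated cells and for cells on indisulam, with open points for genes that were not called. RBMS3 stands far to the right at 3.08 and 3.25, RBM18 and RBM24 to the left, and RBM5 moves from 0.02 off the drug to 0.55 on it.

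RBM5, RBM6 and RBM10 are paralogues that act in alternative splicing, and RBM5 and RBM10 are known for exon choice in transcripts of cell death and cell fate. RBM5, at chr3:50088919-50119021 on the plus strand and with 25 exons in its canonical transcript, was at 61.4 and 61.3 CPM in untreated and at 39.1 and 40.0 CPM in treated parental cells. In resistant cells it was at 60.2 and 64.0 CPM off the drug and at 58.5 and 57.0 CPM on it. The treated parental libraries thus stood apart from the other 6, which lay within a narrow band. RBM5 fell to 0.645 of its untreated level in parental cells (adjusted p = 9.1e-13) and to 0.930 in resistant cells (adjusted p = 0.015), and the responses differed (adjusted p = 1.2e-08). The resistant call was lost without resistant untreated replicate 2 (-0.07, adjusted p = 0.15) or resistant indisulam replicate 2 (-0.09, adjusted p = 0.11), whereas the parental fall stayed between -0.63 and -0.67 with any library left out. Against a threshold of 0.5 log2 units, tested with glmTreat, RBM5 was the RBM gene that passed in parental cells (adjusted p = 0.0027).

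RBM10, on the X chromosome at chrX:47145221-47186813, followed the same order at a higher level. It was at 126 and 122 CPM in untreated and 93.6 and 91.2 CPM in treated parental cells, and at 149 and 151 CPM off and 137 and 133 CPM on the drug in resistant cells. None of the groups overlapped, and the resistant libraries were all above the parental ones. The fall was to 0.746 of the untreated level in parental cells (adjusted p = 4.2e-11) and to 0.897 in resistant cells (adjusted p = 9.4e-05), with a called difference between the responses (adjusted p = 1.2e-05). RBM6, which lies next to RBM5 and shares some exon sequence with it, was at 56.2 to 60.7 CPM in all 8 libraries and was called in none of the 5 contrasts, with differences from -0.07 to 0.05. Of the 3 paralogues, RBM5 and RBM10 fell in treated parental cells and RBM6 stood at 0.03 (SE 0.032, adjusted p = 0.37).

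**Figure D4:**
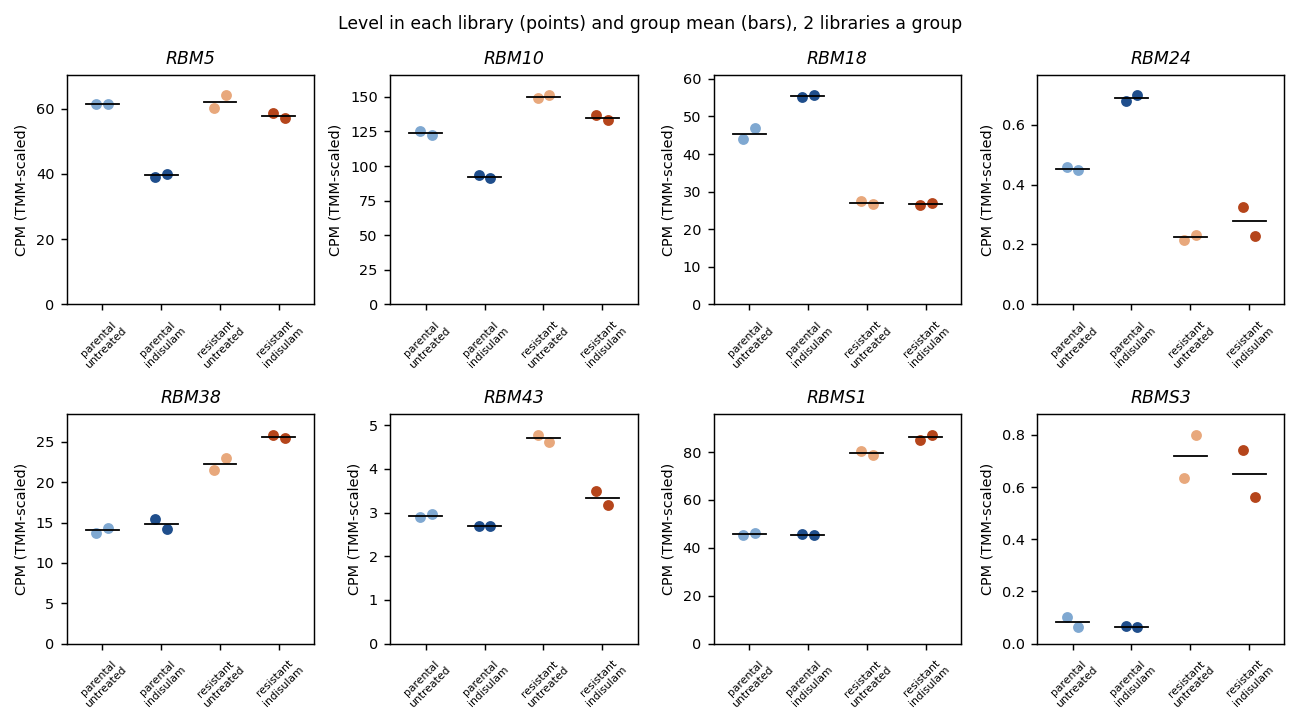
Level of the 8 RBM genes that were called with a difference of at least 0.5 log2 units in any contrast, in CPM after TMM scaling, with 1 point per library and a bar at each group mean. RBM5 and RBM10 are lowest in treated parental cells, RBM18 and RBM24 are lower in all resistant than in all parental libraries, and RBM38, RBMS1 and RBMS3 are higher.

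Several members are part of the spliceosome or travel with it. RBM22 contacts the catalytic RNA in the activated spliceosome, and RBMX2 belongs to the RES complex that retains unspliced RNA and joins before activation. RBM22 was at 90.6 and 90.9 CPM in untreated and at 111 and 109 CPM in treated parental cells, a 1.21-fold rise (adjusted p = 5.5e-08). In resistant cells it was at 105 and 99.7 CPM off and 108 and 109 CPM on the drug, a 1.06-fold change whose call (adjusted p = 0.039) was lost without resistant untreated replicate 2 (0.03, adjusted p = 0.47), either resistant indisulam library or either parental untreated library (0.07 to 0.08, adjusted p = 0.074 to 0.16). Off the drug RBM22 was already higher in resistant than in parental cells (0.18, SE 0.031, adjusted p = 2.8e-05), and on the drug the lines were at -0.02 (adjusted p = 0.52). RBMX2 was at 24.7 and 25.0 CPM in untreated parental cells, 31.0 and 32.0 CPM after treatment, and 26.7 to 27.9 CPM in the 4 resistant libraries. Its 1.27-fold rise was called in parental cells (adjusted p = 5.9e-08) and the 1.03-fold value in resistant cells was not (adjusted p = 0.45), with a called difference of -0.30 (adjusted p = 7.1e-05). The higher level of RBMX2 in untreated resistant cells (0.12, adjusted p = 0.010) was lost without parental untreated replicate 1 (0.11, adjusted p = 0.079) or resistant untreated replicate 1 (0.10, adjusted p = 0.081).

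The genes that work beside RBM22 and RBMX2, a list of 15 proteins of the activated spliceosome and the RES complex, rose in parental cells without exception: 15 of 15 were called higher, with a median of 0.24. In the same cells CDC5L, a scaffold of the Prp19 complex, rose most (0.51, SE 0.029). In resistant cells 2 of the 15 rose and 7 fell, with SYF2 at 0.15 and PRPF19 at -0.22, and the difference of the responses was called lower for 14 of 15, with CRNKL1 lowest (-0.58, SE 0.050). With total reads as the only scaling, 12 rose and none fell in parental cells and 3 rose and 3 fell in resistant cells. Between the lines, 5 of the 15 were higher and 3 lower off the drug, and 13 were lower and none higher on it, where BUD31 was lowest (-0.65, SE 0.032). This list and the other partner lists were drawn up with earlier results of these data known, so their counts are descriptions and stand beside 31.6% of all tested genes that rose and 26.6% that fell in parental cells. The shares of all tested genes in resistant cells were 24.9% higher and 25.8% lower. For the difference of the responses they were 22.7% higher and 27.5% lower. Between the lines they were 30.3% higher and 29.9% lower off the drug, and 34.6% higher and 34.9% lower on it.

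RBM8A is Y14, a core subunit of the exon junction complex. It was at 149 and 151 CPM in untreated and 167 and 173 CPM in treated parental cells, a 1.14-fold rise (adjusted p = 5.3e-06). All 4 resistant libraries lay between 148 and 154 CPM, and the change there was not called (-0.04, adjusted p = 0.28). The responses differed (-0.22, SE 0.040, adjusted p = 6.6e-05). Of 9 further exon junction genes, 7 rose and none fell in parental cells, led by SAP18 (0.27), while 3 rose and none fell in resistant cells, led by PYM1 (0.24). The difference was called lower for 4, among them MAGOH, the direct partner of RBM8A (-0.33, SE 0.045), and higher for none. With total reads as the only scaling the last split was 2 higher and 2 lower.

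RBM25 binds near the U1 snRNP and RBM42 is found with the tri-snRNP. Both rose in both lines. RBM25 went from 218 and 220 to 248 and 251 CPM in parental cells and from 206 and 214 to 250 and 253 CPM in resistant cells, so that the treated libraries of both lines reached a common level. Its changes were 0.19 (SE 0.028, adjusted p = 3.9e-06) and 0.26 (SE 0.028, adjusted p = 4.7e-08), and their difference was 0.07 (SE 0.040, adjusted p = 0.14). RBM42 went from 80.9 and 81.0 to 99.9 and 95.3 CPM in parental cells (0.27, adjusted p = 2.9e-07) and from 81.6 and 84.8 to 96.4 and 91.4 CPM in resistant cells (0.17, adjusted p = 0.00015). The difference between those responses was -0.10 (SE 0.047, adjusted p = 0.097). Of the 5 RBM genes that rose in both lines, these 2 and RBM47 had no called difference between the responses.

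RBM48 and RBM41 belong to the minor, U12-dependent spliceosome. RBM48 was at 18.0 and 17.4 CPM in untreated and 16.1 and 16.4 CPM in treated parental cells, and at 14.6 and 15.3 CPM off and 12.9 and 13.3 CPM on the drug in resistant cells. The order was thus parental above resistant and untreated above treated, without overlap. The fall in resistant cells (-0.19, SE 0.050, adjusted p = 0.0031) held with each library left out, unlike that in parental cells, and the lower level in resistant cells was -0.25 off and -0.31 on the drug. RBM41 was at 20.0 to 21.4 CPM in parental and 17.2 to 18.4 CPM in resistant libraries, lower by line both off (-0.22, adjusted p = 0.00013) and on the drug (-0.18, adjusted p = 0.00084) and not called for the drug in either line. Its on-drug call was lost with total reads as the only scaling (-0.096, adjusted p = 0.064). Of 12 other minor spliceosome genes, 4 rose and 2 fell in parental cells, and 1 rose and 2 fell in resistant cells. CENATAC, which is needed for splicing of a subclass of these introns, fell by 1.01 (SE 0.075) in parental cells, from a mean of 28.3 to 14.0 CPM, and was at 19.8 and 21.7 CPM off and on the drug in resistant cells. Between the lines the response was called higher in resistant cells for 2 of the 12 and lower for 6, and with total reads as the only scaling for 3 and 2.

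RBMX moved in opposite directions in the lines. It was at 288 and 286 CPM in untreated and 311 and 312 CPM in treated parental cells, and at 300 and 298 CPM off and 239 and 241 CPM on the drug in resistant cells. The 2 resistant libraries on indisulam were below all others. The rise in parental cells was 0.12 (SE 0.026, adjusted p = 0.00044), and with total reads as the only scaling it was 0.05 (adjusted p = 0.077). The fall in resistant cells was -0.32 (SE 0.027, adjusted p = 7.1e-10), between -0.31 and -0.33 with any library left out, and the difference of -0.44 (SE 0.037, adjusted p = 3.2e-09) was the lowest among the RBM genes. Off the drug the lines differed by 0.06 (adjusted p = 0.049), and this call was lost when any library but resistant untreated replicate 2 was left out (0.05 to 0.07, adjusted p = 0.051 to 0.23).

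RBM15 and RBM15B carry the m6A methyltransferase to its targets, and RBM33 has been linked to the removal of the mark by ALKBH5. RBM15 was at 25.5 to 26.4 CPM in parental and 23.6 to 24.2 CPM in resistant libraries and was not called for the drug in either line (0.02 and 0.01). Its lower level in resistant cells was called off (-0.12, adjusted p = 0.013) and on the drug (-0.13, adjusted p = 0.0067). The first call was lost without parental untreated replicate 2 (-0.09, adjusted p = 0.14) or resistant untreated replicate 1 (-0.10, adjusted p = 0.093), and the other without either parental indisulam library or resistant indisulam replicate 2 (-0.09 to -0.12, adjusted p = 0.052 to 0.12). RBM15B was at 79.8 to 83.0 CPM in parental cells and fell in resistant cells from 86.7 and 85.6 to 78.7 and 75.4 CPM (-0.16, SE 0.032, adjusted p = 0.00017), which held with each library left out. RBM33 was not called for the drug in either line (0.01 and -0.07) and was lower in resistant cells on the drug (-0.18, SE 0.034, adjusted p = 8.4e-05). Of 7 listed m6A methylation genes, not all of them subunits of 1 complex, 3 rose and 2 fell in parental cells. METTL16 was at 0.35, and METTL3, the catalytic subunit of the methyltransferase that RBM15 carries, at -0.49 (SE 0.029). In resistant cells 1 rose and 2 fell, with VIRMA at -0.19. In resistant cells the response was called higher for 1, METTL3 (0.35), and lower for 4, with CBLL1 lowest (-0.34).

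RBM7 is the RNA-binding subunit of the NEXT complex, and RBM26 and RBM27 are part of the PAXT connection, both of which deliver nuclear RNA to the exosome. All 3 rose in parental cells: RBM7 from 33.3 and 35.2 to 38.4 and 40.8 CPM (0.21, adjusted p = 0.00011), RBM26 from 71.3 and 69.2 to 80.4 and 81.7 CPM (0.21, adjusted p = 4.0e-06), and RBM27 from 32.0 and 33.3 to 39.9 and 38.9 CPM (0.27, adjusted p = 1.6e-06). In resistant cells RBM7 stayed within 32.7 to 34.4 CPM (0.00, adjusted p = 0.96) and RBM26 within 63.4 to 66.4 CPM (0.05, adjusted p = 0.23). RBM27 was at 33.0 and 33.3 CPM off and 34.4 and 36.6 CPM on the drug (0.10, adjusted p = 0.035), a call that was lost without resistant indisulam replicate 2 (0.05, adjusted p = 0.41), either resistant untreated library or either parental untreated library (0.10, adjusted p = 0.056 to 0.10). The difference of the responses was called for all 3 (-0.21, -0.16 and -0.17), but none of these 3 calls held with total reads as the only scaling (adjusted p = 0.19 for RBM7 and 0.43 for each of the others). Without parental indisulam replicate 2 the difference for RBM7 was -0.15 (adjusted p = 0.054), and that for RBM27 was lost without parental untreated replicate 1, parental indisulam replicate 1 or resistant indisulam replicate 1 (-0.11 to -0.15, adjusted p = 0.072 to 0.13). Of 11 other genes, a list that holds exosome and cap-binding genes beside the adaptors, the counts were tilted the other way in parental cells. In parental cells 2 rose and 6 fell, with NCBP2 of the cap-binding complex at 0.37 and PABPN1 at -0.62, and in resistant cells none rose and 8 fell, with SRRT at -0.49. As a difference between lines the response was higher in resistant cells for 3, with PABPN1 at 0.73, and lower for 5, with NCBP2 at -0.45, and with total reads as the only scaling for 3 and 2.

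RBM14 resides in paraspeckles, nuclear bodies built on the NEAT1 RNA, and RBM4 and RBM4B are paralogues that regulate splicing and translation and neighbour RBM14 on chromosome 11. RBM14 was at 114 to 128 CPM in all libraries, and its falls were -0.09 and -0.10 in the 2 lines, with a difference of -0.02 (SE 0.046, adjusted p = 0.78). RBM4B, at chr11:66664998-66677887 on the minus strand, was at 17.8 and 18.6 CPM in untreated and 13.9 and 13.1 CPM in treated parental cells, and at 17.6 and 18.1 CPM off and 17.2 and 16.5 CPM on the drug in resistant cells. As for RBM5, the treated parental libraries stood below the other 6. The fall was to 0.741 in parental cells (adjusted p = 6.3e-08), the resistant change was not called (-0.08, adjusted p = 0.16), and the responses differed (0.35, adjusted p = 0.00019). RBM4 had another order, with 11.2 and 11.2 CPM untreated and 11.8 and 12.2 CPM treated in parental cells, and 8.10 and 8.84 CPM off and 11.1 and 10.0 CPM on the drug in resistant cells. It was lowest in resistant cells on the drug holiday, rose there with the drug (0.31, SE 0.064, adjusted p = 0.00024) and was not called in parental cells (0.10, adjusted p = 0.13). The difference between its responses (0.21, adjusted p = 0.043) was lost with the replicate number as a block (adjusted p = 0.056) and without either parental untreated library, parental indisulam replicate 1, resistant untreated replicate 1 or resistant indisulam replicate 1 (0.16 to 0.21, adjusted p = 0.064 to 0.16). Of 8 other paraspeckle genes, 4 rose and 4 fell in parental cells, with PSPC1 at 0.19 and NEAT1 at -1.42 (SE 0.20, from a mean of 159 to 59.4 CPM), and 1 rose and 2 fell in resistant cells, with HNRNPK at 0.10 and NEAT1 at 163 and 164 CPM. The difference of the responses was higher for 3, with NEAT1 at 1.44, and lower for 3, with PSPC1 at -0.38, and with total reads as the only scaling for 3 and 1.

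RBMS1, RBMS2 and RBMS3 bind AU-rich single-stranded RNA, often at the 3' end of messages. RBMS1, at chr2:160272151-160493807 on the minus strand, was at 45.4 and 46.3 CPM in untreated and 45.6 and 45.5 CPM in treated parental cells, and at 80.3 and 78.8 CPM off and 84.9 and 87.2 CPM on the drug in resistant cells. All resistant libraries were far above all parental ones. The difference was 1.74-fold off the drug (adjusted p = 2.0e-16) and 1.89-fold on it (adjusted p = 1.6e-17), and it passed the 0.5 log2 threshold each time (glmTreat adjusted p = 3.9e-09 and 8.2e-12). RBMS1 was not called for indisulam in parental cells (-0.01, SE 0.033, adjusted p = 0.84), and the difference of its responses (0.12, adjusted p = 0.027) was lost without either parental untreated library or resistant indisulam replicate 2 (0.11 to 0.14, adjusted p = 0.055 to 0.14). RBMS2, the most abundant of the 3, was at 289 and 287 CPM in untreated and 211 and 207 CPM in treated parental cells, and at 229 and 243 CPM off and 215 and 223 CPM on the drug in resistant cells. It fell to 0.727 in parental (adjusted p = 1.6e-11) and to 0.927 in resistant cells (adjusted p = 0.0048), and the responses differed (0.35, SE 0.043, adjusted p = 5.3e-07). Untreated parental cells thus held the highest RBMS2 level, and on the drug the lines differed by 0.07 (adjusted p = 0.056). RBMS3, which spans chr3:28574791-30010391, was close to silent in parental cells, with 11 and 7 reads untreated and 5 and 5 reads treated, and had 47 and 52 reads off and 50 and 54 reads on the drug in resistant cells. The fitted difference was 8.44-fold off (adjusted p = 6.2e-09) and 9.53-fold on the drug (adjusted p = 2.4e-08), from at most 0.100 CPM in parental libraries to at least 0.562 CPM in resistant ones. Leaving out 1 library moved these values between 2.81 and 3.41 and between 3.07 and 3.47 on the log2 scale. RBMS1 and RBMS3 were thus higher in the resistant line each time, whereas RBMS2 was lower off the drug (-0.29, SE 0.030).

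RBM24 and RBM38 are close paralogues that bind the 3' end of mRNAs, RBM24 being known from muscle and RBM38 as a target of p53 that controls the stability of p21 mRNA. Their line differences ran in opposite directions. RBM38, at chr20:57391396-57409333, was at 13.7 and 14.3 CPM in untreated and 15.4 and 14.1 CPM in treated parental cells, and at 21.5 and 23.0 CPM off and 25.9 and 25.4 CPM on the drug in resistant cells. It was 1.59-fold higher in resistant cells off (adjusted p = 2.5e-11) and 1.73-fold higher on the drug (adjusted p = 8.0e-13), and rose with the drug in resistant cells (0.21, adjusted p = 0.00085) with a difference from the parental response that was not called (0.13, SE 0.070, adjusted p = 0.13). RBM24 rested on 50 and 48 reads in untreated and 51 and 54 reads in treated parental cells, and on 16 and 15 reads off and 22 and 22 reads on the drug in resistant cells, or 0.457, 0.449, 0.680, 0.697, 0.216, 0.231, 0.326 and 0.229 CPM in this order. All resistant libraries were below all parental ones, with 0.494 of the parental level off (adjusted p = 0.0022) and 0.393 on the drug (adjusted p = 2.4e-05). Its rise in parental cells (0.60, adjusted p = 0.012) was lost without parental untreated replicate 1 (0.62, adjusted p = 0.051), parental untreated replicate 2 (0.59, adjusted p = 0.059) or parental indisulam replicate 2 (0.57, adjusted p = 0.074), and in the DESeq2 Wald test (0.61, adjusted p = 0.17).

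RBM47 is a splicing regulator of epithelial cells and a cofactor of the editing enzyme APOBEC1. It was at 96.1 and 95.2 CPM in untreated and 123 and 121 CPM in treated parental cells, and at 74.1 and 73.3 CPM off and 87.4 and 89.5 CPM on the drug in resistant cells. The 4 groups were separate, and resistant cells on the drug remained below untreated parental cells. RBM47 rose 1.28-fold in parental (adjusted p = 5.4e-10) and 1.20-fold in resistant cells (adjusted p = 1.2e-07), and the difference of the responses was -0.09 (SE 0.042, adjusted p = 0.085). Beside its lower level in the resistant line (-0.38 off and -0.46 on the drug), the summed level of 10 epithelial markers was 6392 and 6466 CPM in untreated and treated parental cells and 10850 and 12060 CPM in resistant cells off and on the drug. Most of that sum was KRT8 (2477, 2435, 4141 and 4757 CPM) and KRT18 (2231, 2247, 3989 and 4395 CPM), while EPCAM stood at 396, 464, 424 and 432 CPM in the same order and CEACAM6, S100P and TFF1 were near 0. The part of these keratin values in the RBM47 values was not tested.

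RBM19, RBM28 and RBM34 are nucleolar proteins, RBM19 and RBM28 with known roles in ribosome assembly. RBM28 was at 109 and 112 CPM in untreated and 101 and 103 CPM in treated parental cells, and at 87.5 and 91.1 CPM off and 78.3 and 78.0 CPM on the drug in resistant cells. Each group was separate from the next, and the order resembled that of RBM48. Its lower level in resistant cells was -0.31 off (adjusted p = 5.0e-09) and -0.38 on the drug (adjusted p = 1.3e-10), and the falls with the drug of -0.12 and -0.19 had a difference of -0.07 (SE 0.044, adjusted p = 0.18). RBM19 rose in parental cells from 53.2 and 53.4 to 59.9 and 61.2 CPM (0.18, adjusted p = 0.00024). In resistant cells it was at 56.1 and 61.6 CPM off and 55.6 and 53.4 CPM on the drug (-0.11, adjusted p = 0.023), a fall that was lost without resistant untreated replicate 2 (-0.05, adjusted p = 0.33) or resistant indisulam replicate 2 (-0.08, adjusted p = 0.18). The difference of the responses (-0.29, adjusted p = 0.00011) held with each library left out, while the higher level of RBM19 in untreated resistant cells (0.14) was lost without resistant untreated replicate 2 (0.08, adjusted p = 0.074). RBM34 was not called in any contrast, with SE of 0.20 to 0.28 at 0.547 to 0.832 CPM. A list of 14 other ribosome biogenesis genes was drawn up for the large subunit, but not all of them are specific to it. Of these, 7 rose and 4 fell in parental cells, with DDX18 at 0.32 and NOL12 at -0.47. In resistant cells 1 rose and 11 fell, with NOL12 at 0.32 and EBNA1BP2 at -0.43. With total reads as the only scaling the parental split was 4 and 6. The difference of the responses was called lower for 9 and higher for 1, and with total reads as the only scaling for 8 and 3.

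RBM3 changed little for its abundance. It was at 346 and 357 CPM in untreated and 358 and 360 CPM in treated parental cells, and at 344 and 341 CPM off and 380 and 385 CPM on the drug in resistant cells, where it rose 1.12-fold (adjusted p = 2.9e-05). The parental change was not called (0.03, SE 0.027, adjusted p = 0.36), and the difference of 0.13 (adjusted p = 0.0067) was lost without parental untreated replicate 2 (0.11, adjusted p = 0.087). Of 6 other cold-shock genes, 5 were tested. In parental cells 3 rose and none fell, led by YBX3 (0.18), or 2 and 1 with total reads as the only scaling, and in resistant cells 1 rose, CIRBP (0.22), which like RBM3 is a cold-inducible RNA-binding protein, and 2 fell, with YBX1 at -0.24. CIRBP was lower in the resistant line than in the parental line off the drug (-0.72, SE 0.032), unlike RBM3 (-0.04, adjusted p = 0.25), and for this list the difference of the responses was called higher for 1 gene and lower for 3.

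**Figure D5:**
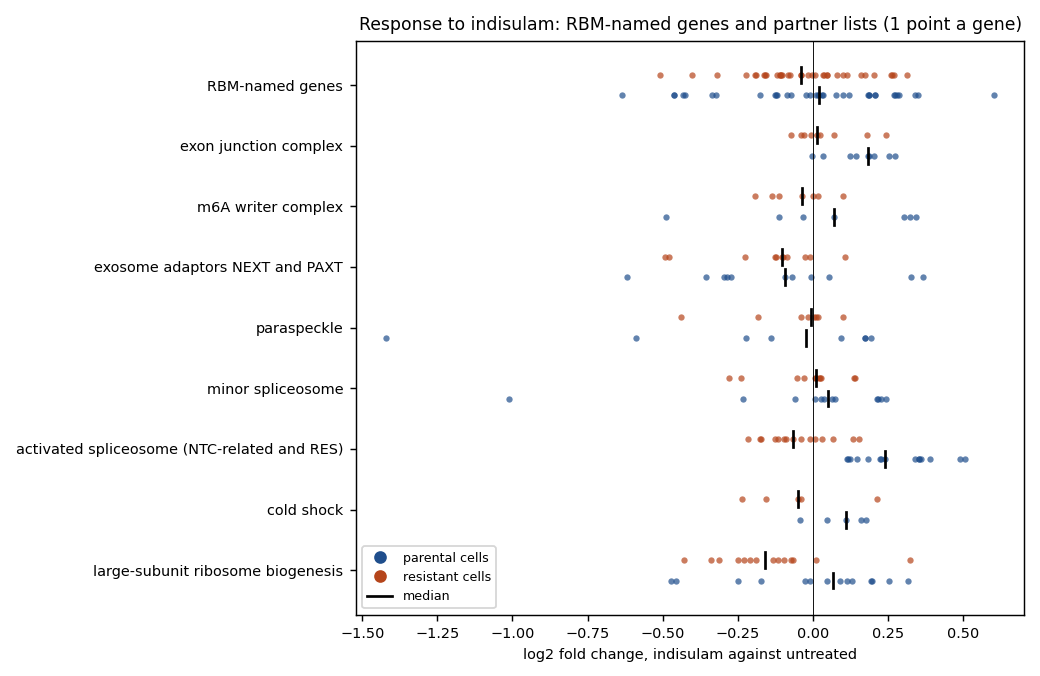
Response to indisulam in parental and in resistant cells for the RBM genes and for 8 lists of genes that work beside some of them, as log2 fold changes with 1 point per gene and a bar at each median. The activated spliceosome list lies wholly to the right of 0 in parental cells with a median of 0.24 and has a median of -0.07 in resistant cells, while the RBM genes spread to both sides in each line.

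RBM12 and RBM12B are paralogues of little known function. RBM12 was at 168 and 170 CPM in untreated and 148 and 152 CPM in treated parental cells, and at 166 and 163 CPM off and 122 and 127 CPM on the drug in resistant cells. The untreated lines stood at a difference of -0.04 (adjusted p = 0.24), and RBM12 fell in both, to 0.886 in parental (adjusted p = 1.7e-05) and 0.756 in resistant cells (adjusted p = 7.5e-11). It fell more in resistant than in parental cells (difference -0.23, SE 0.041, adjusted p = 7.6e-05). RBM12B went from 70.7 and 74.4 to 57.7 and 58.4 CPM in parental cells (-0.32, adjusted p = 1.2e-08) and from 84.2 and 85.4 to 72.7 and 72.6 CPM in resistant cells (-0.22, adjusted p = 3.2e-06). The difference of RBM12B responses was 0.10 (adjusted p = 0.073), and it was higher in resistant cells off (0.23) and on the drug (0.32).

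RBM18, a small and little studied protein, was the RBM gene above 1 CPM that was lowest in the resistant line relative to the parental one. Its gene lies at chr9:122237622-122264840 on the minus strand. It was at 44.1 and 46.9 CPM in untreated and 55.2 and 55.6 CPM in treated parental cells, and at 27.5 and 26.7 CPM off and 26.5 and 27.1 CPM on the drug in resistant cells. The parental libraries were all far above the resistant ones, and the drug raised the level in parental cells while the 4 resistant libraries stayed within 1 narrow band. The resistant line had 0.596 of the parental level off (adjusted p = 3.0e-14) and 0.484 on the drug (adjusted p = 3.6e-17), the 1.22-fold rise in parental cells was called (adjusted p = 3.1e-07), and the resistant value was 0.989-fold (adjusted p = 0.78). The responses differed (-0.30, SE 0.054, adjusted p = 7.2e-05).

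RBM43 was the RBM gene with the largest called fall in resistant cells. It was at 2.90 and 2.96 CPM in untreated and 2.68 and 2.70 CPM in treated parental cells, and at 4.78 and 4.62 CPM off and 3.49 and 3.16 CPM on the drug in resistant cells. Untreated resistant cells were highest, and resistant cells on the drug still lay above the parental cells. RBM43 was 1.61-fold higher in the resistant line off the drug (adjusted p = 4.6e-07) and fell to 0.703 with the drug there (adjusted p = 6.1e-05). Its higher level on the drug (0.30, adjusted p = 0.010) was lost without resistant indisulam replicate 1 (0.24, adjusted p = 0.087), and the difference of the responses (-0.39, adjusted p = 0.019) was lost without parental untreated replicate 1, parental indisulam replicate 2, resistant untreated replicate 1 or resistant indisulam replicate 2 (-0.29 to -0.37, adjusted p = 0.054 to 0.13). RBM45, an RNA-binding protein studied in neurons, was at 12.0 and 12.2 CPM in untreated and 8.88 and 8.68 CPM in treated parental cells, and at 13.1 and 13.2 CPM off and 11.7 and 12.4 CPM on the drug in resistant cells. As for RBM5, RBM4B and RBM10, the treated parental libraries were the lowest of all. The fall was to 0.727 in parental cells (adjusted p = 1.3e-07), the resistant value was -0.12 (SE 0.053, adjusted p = 0.063), and the responses differed (0.34, adjusted p = 0.00063). The higher level of RBM45 in untreated resistant cells (0.12, adjusted p = 0.041) was lost when any library but the 2 parental indisulam ones was left out (0.11 to 0.13, adjusted p = 0.073 to 0.16).

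Counted over the set, some calls held under each library left out and each other normalisation, filter and test that could be run on the gene, except the stricter 0.5 log2 threshold. RBM24 and RBMS3 were not tested under the filter on a mean of 1 CPM, which removes them, and are counted in both comparisons of the lines. These calls numbered 18 of 23 in parental cells, 14 of 21 in resistant cells, 16 of 22 between the untreated lines, 21 of 28 between the lines on indisulam and 11 of 20 for the difference of the responses. The 11 were RBM4B, RBM5, RBM8A, RBM10, RBM12, RBM18, RBM19, RBM45, RBMX, RBMX2 and RBMS2. Matching shares over all tested genes are not given here, so these counts describe the RBM genes only.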

How the data were processed

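RNA-seq of polyadenylated, stranded libraries was available for 8 libraries in 4 groups of 2, grouped by titles and treatment fields. The authors aligned reads to GRCh38 with HISAT2 2.2.1, marked duplicates with Picard and counted with HTSeq, as the submitters' processing notes name them. The study's methods also name HISAT2 and GRCh38, but neither Picard nor HTSeq. The deposited values were raw read counts per Ensembl gene, and duplicate, ambiguous and low-quality alignments did not enter them. The strand setting and the annotation release are not given in the sources used here. The 9 lines that were not genes, mainly duplicates, unmapped and low-quality alignments, held 37.9 to 44.9% of each library's total and were left out. Symbols came from GENCODE release 44, which matched 60419 of 60675 identifiers.

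Counts were filtered with filterByExpr, scaled by TMM and fitted with a quasi-likelihood model over all 4 groups in edgeR 4.0.16 under R 4.3.3 (robust, 4 residual degrees of freedom), and p-values were adjusted over 16661 genes by Benjamini-Hochberg. The contrasts were treated against untreated within each line, resistant against parental both untreated and both on indisulam, and the interaction (resistant response minus parental response). The fit was also run on simulated counts with 200 changed genes, as many raised as lowered, which is far fewer than were called here. That run therefore does not test the scaling under changes as widespread as in these data. Named in the text are the 5 largest called rises and falls per contrast, every RBM gene at least once, and per partner list the largest called change each way, except 1 that is not reported here. BUD31, and CIRBP in its line difference, were named after their values were seen. Members, partner lists and tests were chosen with earlier results of these data known. Within groups, libraries differed beyond sampling noise (mean chi-square per gene 2.18 to 7.01). Alternatives were DESeq2 1.42.0 (size factors and Wald test), library totals, no filter, a mean of at least 1 CPM, a replicate block, a test against 0.5 log2 units (glmTreat), fits of the compared groups alone, and each library left out. Depth was 65266253 to 108002436 gene reads per library, and limits given for a count of 0 cover counting error only. Sequences were read from RefSeq on GRCh38.p14, and figures were drawn with matplotlib 3.10.9 under Python 3.11.15.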

Additional observations from a re-analysis of the deposited data

Results flagged for a closer look

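For 20 of the 35 tested RBM genes resistant and parental cells responded differently to indisulam by the interaction term of the edgeR quasi-likelihood fit (Benjamini-Hochberg adjusted p under 0.05), beside 50.1% of all tested genes. On the log2 scale, as resistant minus parental response, the value was positive for RBM5 (0.53), RBMS2 (0.35), RBM4B (0.35), RBM45 (0.34), RBM10 (0.27), RBM4 (0.21), RBM3 (0.13) and RBMS1 (0.12). It was negative for RBMX (-0.44), RBM43 (-0.39), RBMX2 (-0.30), RBM18 (-0.30), RBM19 (-0.29), RBM12 (-0.23), RBM8A (-0.22), RBM7 (-0.21), RBM22 (-0.20), RBM27 (-0.17), RBM26 (-0.16) and RBM15B (-0.14). With each library left out in turn, 13 of the 20 calls held, and the losses concerned RBM3, RBM4, RBM7, RBM15B, RBM27, RBM43 and RBMS1. The 2 libraries of each group were technical replicates and each line was 1 population, so a difference between lines cannot be told apart from a difference between 2 particular cultures. Nor can line be told apart from exposure, which was 18 h against untreated in parental cells and continuous against 1 week off in resistant cells.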

How the results depend on the processing

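Leaving out each library in turn gave 20 to 23 called RBM genes in parental cells, 16 to 21 in resistant cells, 17 to 22 between untreated lines, 25 to 29 between lines on indisulam and 16 to 23 for the difference of the responses. Tested by glmTreat in edgeR against 0.5 log2 units, the counts were 1 (RBM5), 0, 5 (RBM18, RBM38, RBM43, RBMS1 and RBMS3), 5 (RBM18, RBM24, RBM38, RBMS1 and RBMS3) and 0 in that order, because the threshold itself is stricter, while 23, 23, 24, 29 and 22 RBM genes had an unadjusted p under 0.05 against no change and the DESeq2 Wald test called 20, 19, 19, 26 and 17. With the replicate number as a block the counts were 23, 21, 21, 28 and 19. Deviations of same-numbered libraries from their group means showed little correlation across genes (-0.058 to 0.0272), which cannot exclude a weak pairing. The block ended the calls of RBMX between untreated lines and RBM4 in the difference of the responses. RBM15B between the lines on indisulam turned from -0.08 to 0.0070 with library totals as the only scaling. That scaling left 141 of 175 gene-by-contrast results on the same side of the threshold, removed 18 calls beside that of RBM15B and added 15, and the cause was not tested. With 2 libraries a group, RBM24, RBM34 and RBMS3, at under 1 CPM, were the least precise. For the counts in this section, matching shares over all tested genes are not given, so they describe the RBM genes only.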
